A study of Mus musculus with 12 samples.

Results

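The genes described here are 9 genes of nucleic acid sensing and the type I interferon response: the sensors Zbp1, Ifih1 and Ddx58, the transcription factor Irf7, and the interferon-stimulated genes Isg15, Oasl2, Ifit1, Ifit3 and Bst2. They were chosen by gene symbol, without a limit on level or change, and all 9 are present among the 23412 genes of the count table. The choice of these genes and of the pathway lists below was made with earlier results of these data known. Their shares set against all genes are therefore descriptions. Each of the 9 genes was compared across the 4 genotypes of the study.

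The study asked what the nucleosome-binding proteins HMGN1 and HMGN2 do in v6.5 mESCs, a line of mouse embryonic stem cells. RNA-Seq was carried out on 12 libraries, 3 biological replicates of each genotype: WT, the 2 single knockouts Hmgn1-/- and Hmgn2-/-, and the double knockout Hmgn1-/-Hmgn2-/-. Both edits are homozygous and shift the reading frame, by a deletion in Hmgn1 and an insertion in Hmgn2, and the double knockout carries the 2 together. Each knockout line was grown from a single edited cell, and the double knockout was derived from the Hmgn2-/- line. The p-values below therefore measure the spread between cultures, and genotype and clone cannot be told apart.

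Foreign or misplaced nucleic acid is recognised inside cells by sensor proteins, which signal through adaptors to transcription factors of the IRF family and to the genes of type I interferon. Secreted interferon acts through its receptor and JAK kinases on STAT and IRF factors, which bind a short element in the promoters of interferon-stimulated genes. Pluripotent stem cells are known for a weak interferon response, with low levels of many of these genes.

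Library totals were 31448468, 17614490 and 28524108 counts for WT replicates 1 to 3, and 25953244, 21059862 and 21993042 for the Hmgn1-/- replicates. They were 25908890, 26486535 and 17337908 for the Hmgn2-/- replicates, and 31005479, 22151507 and 26410485 for the double knockout. Levels are counts per 1e6 counts of a library (CPM), with library sizes scaled by the trimmed mean of M values (TMM) in edgeR, and values after ± are the SD of 3 libraries. The floor was set at 3 counts per library: a group none of whose libraries exceeded it is at the floor, which corresponds to 0.0937 to 0.178 CPM, and intervals and floors cover counting error only. The edited genes were looked at first. Hmgn1 was at 662, 594 and 612 CPM in the WT libraries and at 138, 139 and 142 CPM in the Hmgn1-/- libraries. In the double knockout it was at 21.6, 19.9 and 21.5 CPM, and in Hmgn2-/- mESCs at 581 ± 51.4 CPM (SD, n = 3). Hmgn2 was at 137, 121 and 119 CPM in the WT libraries, at 50.9, 54.5 and 53.8 CPM in the Hmgn2-/- libraries and at 53.9, 50.5 and 54.5 CPM in the double knockout. In Hmgn1-/- mESCs Hmgn2 was at 109 ± 3.84 CPM (SD, n = 3). The labels and the levels of the edited genes matched in all 12 libraries. All 9 markers of pluripotency examined, among them Pou5f1, Sox2 and Nanog, were abundant, and their summed level was 5088 to 6088 CPM over the libraries. By edgeR's quasi-likelihood test and by DESeq2, 0 of these 9 markers passed the limits for differential expression given below in any knockout, while 4, 3 and 4 of them had an unadjusted p under 0.05 in Hmgn1-/-, Hmgn2-/- and Hmgn1-/-Hmgn2-/- mESCs by either tool. Of all genes tested by edgeR 38.7%, 31.0% and 38.9% had such a p, and of all genes with a p by DESeq2 27.5%, 22.9% and 27.8%. Single markers shifted without passing the limits. The mean of Klf4 was 125.1 CPM in WT mESCs and 239.5, 201.8 and 210.5 CPM in Hmgn1-/-, Hmgn2-/- and Hmgn1-/-Hmgn2-/- mESCs. In the same order Nanog was at 255.9, 206.2, 180.6 and 188.4 CPM. Hmgn2-/- replicate 3 stood apart from the other Hmgn2-/- libraries: the chi-square over its degrees of freedom, which is near 1 for sampling noise, was 36.4 and 20.6 for its pairs and 3.40 to 12.1 for the other replicate pairs.

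Promoters are shown to let the genes be compared at the sequence through which interferon acts. RefSeq windows of GRCm38.p6, the 250 bases before the start of each gene, were available for 8 of the 9 members, and Zbp1 was not among them. The motif searched, on both strands, was GAAA followed by any 2 bases and GAAA again, the core of the element bound by IRF factors. Of all 32851 windows, 978 (2.98%) held this motif, and 59 (0.180%) held more than 1 copy. Among the members, Isg15 had 3 overlapping copies, and Bst2, Ifit1 and Ifit3 had 2 each. No copy was found in the windows of Ifih1, Ddx58, Irf7 and Oasl2. A second motif, TTCNNNGAA, the core of the element bound by STAT dimers, was present in 2306 windows (7.02%) and, among the members, in Bst2. A match is a description of the letters and not a binding site. The windows of Isg15 (chr4:156200819-156201068, minus strand) and Bst2 (chr8:71537473-71537722, minus strand) are printed because these members carry the motif and differed in level. The window of Oasl2 (chr5:114896684-114896925, plus strand, 242 bases) is printed as a member whose level fell in the double knockout and whose window lacks the motif. Oas1g (chr5:120887614-120887863, minus strand) is an antiviral gene of the wider list whose level fell in each knockout. Capitals mark the core of the IRF element, with overlapping copies joined.
Isg15: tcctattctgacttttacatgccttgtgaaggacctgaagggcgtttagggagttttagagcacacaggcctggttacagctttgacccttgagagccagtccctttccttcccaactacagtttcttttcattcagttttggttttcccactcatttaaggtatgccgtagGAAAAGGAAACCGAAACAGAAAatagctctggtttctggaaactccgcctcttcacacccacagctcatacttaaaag
Bst2: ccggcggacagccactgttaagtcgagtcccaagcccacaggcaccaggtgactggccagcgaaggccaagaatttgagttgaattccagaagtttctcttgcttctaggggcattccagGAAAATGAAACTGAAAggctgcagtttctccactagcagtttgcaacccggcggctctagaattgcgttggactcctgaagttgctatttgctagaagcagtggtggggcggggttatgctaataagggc
Oasl2: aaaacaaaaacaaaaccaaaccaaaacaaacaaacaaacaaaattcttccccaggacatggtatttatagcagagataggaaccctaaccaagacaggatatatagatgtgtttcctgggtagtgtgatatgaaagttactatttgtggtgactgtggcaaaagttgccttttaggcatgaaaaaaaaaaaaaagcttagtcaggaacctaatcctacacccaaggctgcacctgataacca
Oas1g: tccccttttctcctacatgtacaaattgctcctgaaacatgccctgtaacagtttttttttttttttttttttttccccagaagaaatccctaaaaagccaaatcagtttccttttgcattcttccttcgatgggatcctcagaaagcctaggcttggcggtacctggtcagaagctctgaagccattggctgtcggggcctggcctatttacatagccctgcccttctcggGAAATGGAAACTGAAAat

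The 9 members covered a wide range of levels. Per kilobase of exon, the mean level in WT mESCs was 95.2 CPM for Bst2 and 15.1 CPM for Ddx58. It was 0.531 CPM for Zbp1, 0.449 CPM for Isg15 and 0.214 CPM for Oasl2. Ifit1, Ifih1, Irf7 and Ifit3 were at 0.0514, 0.0224, 0.0180 and 0.0132 CPM per kilobase, so 7 of the 9 members were under 1 CPM per kilobase. The exon length of Irf7 includes transcripts that keep introns. Irf7 also shares 45 exon bases with Phrf1 on the opposite strand, which was the only exon overlap found for a member, and whether the counting used the strand is not given in the sources used here.

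**Figure D1:**
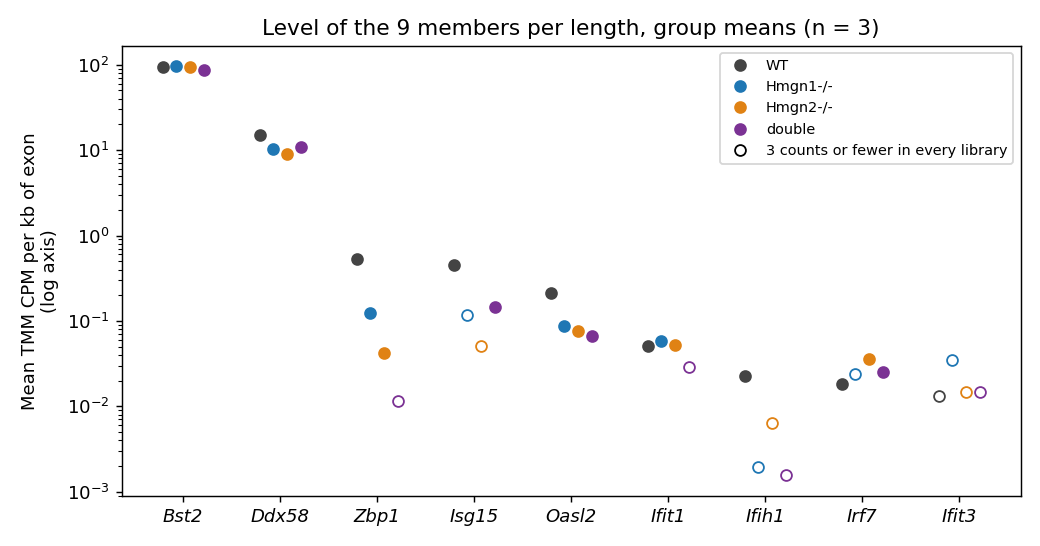
Mean level of each member in each genotype (n = 3), in TMM-scaled CPM per kilobase of exon on a log axis, with double standing for Hmgn1-/-Hmgn2-/- and open circles for groups with 3 counts or fewer in every library. Bst2 and Ddx58 lie far above the other members, and Zbp1 spreads most widely between genotypes.

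Against WT mESCs, Zbp1 was lower in every knockout line, and Oasl2 passed the test in the double knockout. Bst2, the most abundant member per kilobase of exon, was at the same level as in WT mESCs within the spread of the libraries in both single knockouts. Differentially expressed genes (DEGs) were those with a Benjamini-Hochberg adjusted p under 0.01 over all genes tested and a log2 FC of at least 1 in size. Only Zbp1, Ddx58, Oasl2 and Bst2 passed edgeR's default filter on low counts, so 4 of the 9 members were tested. In Hmgn1-/- mESCs 1 member (Zbp1) was a DEG and lower, against 5.08% of the 13917 genes tested that were lower and 0.898% that were higher. In Hmgn2-/- mESCs 1 member (Zbp1) was lower, against 4.38% of 14047 genes lower and 0.776% higher. In Hmgn1-/-Hmgn2-/- mESCs 2 members (Zbp1 and Oasl2) were lower, against 5% of 14128 genes lower and 1.3% higher. Every knockout library was below every WT library for 2 of the 4 members tested in Hmgn1-/- mESCs (Zbp1 and Oasl2), where 20.5% of the genes tested had this pattern. The same held for 3 of 4 in Hmgn2-/- mESCs (Zbp1, Ddx58 and Oasl2), against 18.7% of genes, and for 3 of 4 in the double knockout (Zbp1, Oasl2 and Bst2), against 20.8%. Isg15, which was not tested, had the pattern in each knockout. In every comparison in which they were DEGs, Zbp1 and Oasl2 passed the filter through the WT libraries and not through the knockout libraries alone, so as DEGs they could only be lower, and these counts of members are a description. The 3 comparisons share the WT libraries, so they are not independent of each other.

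**Figure D2:**
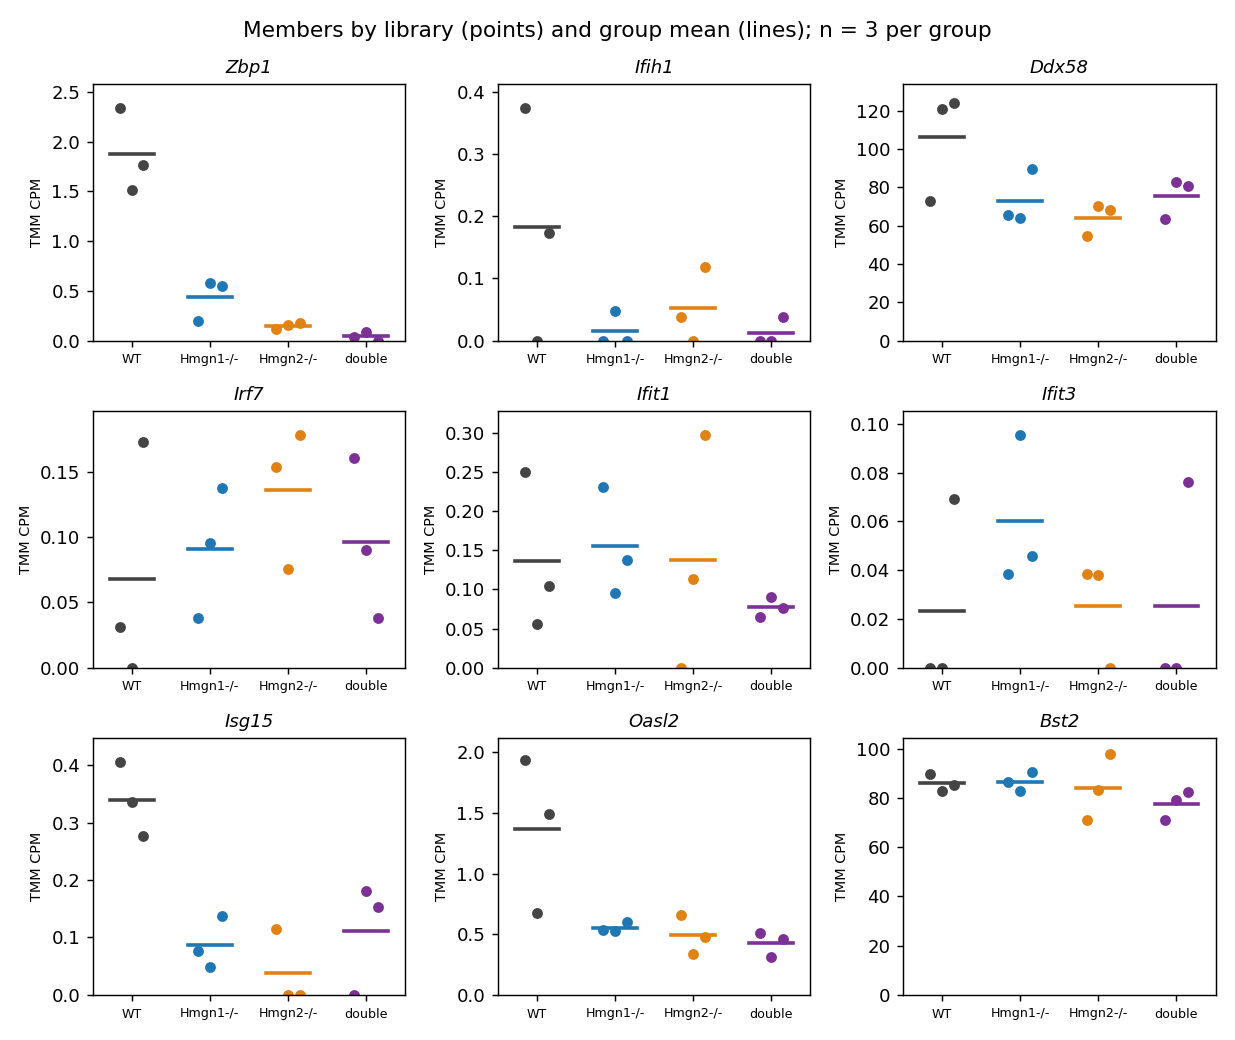
Level of each member in every library in TMM-scaled CPM, with 1 panel per gene, 1 point per library and a bar for the mean of each genotype (n = 3); double stands for Hmgn1-/-Hmgn2-/-. For Zbp1 the 4 genotypes occupy separate ranges, from 1.51 to 2.34 CPM in WT mESCs down to 0 to 0.0903 CPM in the double knockout. The knockout ranges rest on 0 to 12 counts per library, and the order of the knockouts was not resolved by tests between them.

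Zbp1 encodes a sensor of nucleic acid in the Z conformation that can start necroptosis and inflammatory signalling. The gene (chr2:173206612-173218923, minus strand) had 75, 27 and 51 counts in the WT libraries, 5, 12 and 12 in the Hmgn1-/- libraries, 3, 4 and 3 in the Hmgn2-/- libraries and 1, 2 and 0 in the double knockout. As levels these were 2.34, 1.51 and 1.77 CPM in WT mESCs, 0.192, 0.573 and 0.551 CPM in Hmgn1-/- mESCs, 0.116, 0.151 and 0.178 CPM in Hmgn2-/- mESCs and 0.0320, 0.0903 and 0 CPM in the double knockout. All WT libraries were above all others, and the ranges of the 4 genotypes did not overlap. Among the knockouts these ranges rest on 0 to 12 counts per library, and the order of the knockouts was not resolved in the tests between them given below. The share of all genes with 4 separate ranges was not counted. The group means were 1.87 ± 0.426 CPM in WT mESCs, 0.439 ± 0.214 CPM in Hmgn1-/- mESCs, 0.148 ± 0.0316 CPM in Hmgn2-/- mESCs and 0.0408 ± 0.0458 CPM in the double knockout (SD, n = 3). Zbp1 fell in Hmgn1-/- mESCs with a log2 FC of -2.15 (standard error 0.37, adjusted p = 6.1e-04 by edgeR's quasi-likelihood test, Benjamini-Hochberg adjusted). By the same edgeR test the log2 FC in Hmgn2-/- mESCs was -3.67, with a standard error of 0.38 (adjusted p = 8.2e-05). For the double knockout it was -5.49, with a standard error of 0.53 (adjusted p = 4.8e-06). From the summed counts, the WT level was 4.60 times the Hmgn1-/- level (95% exact interval 3.08 to 7.10), 13.4 times the Hmgn2-/- level (7.11 to 28.6) and 51.5 times that of the double knockout (17.3 to 253). The double knockout was at the floor with 3 counts in all, so its fitted value and ratio are imprecise, and without double knockout replicate 2 the log2 FC was -6.45. Zbp1 remained a DEG in each comparison when any 1 library was left out. In bulk RNA, fewer cells with a transcript and less of it per cell cannot be told apart.

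Ifih1 encodes MDA5, a cytoplasmic sensor of long double-stranded RNA. The gene (chr2:62595798-62646255, minus strand) had 12, 0 and 5 counts in the WT libraries, 0, 1 and 0 in Hmgn1-/- mESCs, 1, 0 and 2 in Hmgn2-/- mESCs and 0, 0 and 1 in the double knockout. WT replicate 2 had no count, so the genotypes overlapped, and all 3 knockouts were at the floor. The WT level was 14.8 times the Hmgn1-/- level (95% exact interval 2.32 to 620), 4.98 times the Hmgn2-/- level (1.44 to 26.5) and 17.2 times that of the double knockout (2.69 to 718). These intervals do not include the spread among the WT libraries, and Ifih1 did not pass the filter for the test.

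Ddx58 encodes RIG-I, a sensor of short double-stranded RNA with uncapped ends, and was the most abundant of the sensors. The gene (chr4:40203773-40239828, minus strand) was at 73.2, 121 and 124 CPM in the WT libraries and at 65.5, 64.2 and 89.7 CPM in the Hmgn1-/- libraries. It was at 54.5, 70.3 and 68.0 CPM in the Hmgn2-/- libraries and at 63.4, 83.0 and 80.9 CPM in the double knockout. WT replicate 1 lay below the other WT libraries and within the range of Hmgn1-/- mESCs and of the double knockout. The means were 106 ± 28.7 CPM in WT mESCs, 73.1 ± 14.4 CPM in Hmgn1-/- mESCs, 64.3 ± 8.55 CPM in Hmgn2-/- mESCs and 75.8 ± 10.8 CPM in the double knockout (SD, n = 3). With log2 FC values of -0.54, -0.72 and -0.49 in Hmgn1-/-, Hmgn2-/- and Hmgn1-/-Hmgn2-/- mESCs (adjusted p = 0.0253, 0.0157 and 0.0314, edgeR's quasi-likelihood test, Benjamini-Hochberg adjusted), Ddx58 was not a DEG in any of them. Without WT replicate 1 these were -0.76, -0.94 and -0.71 (adjusted p = 1.4e-06, 6.7e-04 and 3.1e-06), which passed the limit on p and not the limit on fold change. Without WT replicate 3 they shrank to -0.41, -0.60 and -0.37, so the size of the fall depended on which WT library was left out.

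Irf7 encodes the transcription factor that amplifies the induction of type I interferon genes. The gene (chr7:141262706-141266481, minus strand) had 1, 0 and 5 counts in the WT libraries, 1, 2 and 3 in Hmgn1-/- mESCs, 4, 2 and 3 in Hmgn2-/- mESCs and 5, 2 and 1 in the double knockout. All genotypes overlapped within this range of 0 to 5 counts, and Hmgn1-/- mESCs were at the floor. A difference in Irf7 between genotypes was not detectable at this depth: the WT level was 0.872 times the Hmgn1-/- level (95% exact interval 0.233 to 3.26), 0.586 times the Hmgn2-/- level (0.172 to 1.84) and 0.758 times that of the double knockout (0.217 to 2.49).

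Isg15 encodes a ubiquitin-like protein that is attached to other proteins in the interferon response. The gene (chr4:156199424-156200818, minus strand), whose promoter window held 3 overlapping copies of the IRF motif, had 13, 6 and 8 counts in the WT libraries, 2, 1 and 3 in Hmgn1-/- mESCs, 3, 0 and 0 in Hmgn2-/- mESCs and 0, 4 and 4 in the double knockout. Each WT library was above each knockout library once scaled, and the single knockouts were at the floor. The means were 0.340 ± 0.0646 CPM in WT mESCs, 0.0875 ± 0.0460 CPM in Hmgn1-/- mESCs, 0.0385 ± 0.0667 CPM in Hmgn2-/- mESCs and 0.111 ± 0.0972 CPM in the double knockout (SD, n = 3). From the summed counts, the WT level was 3.93 times the Hmgn1-/- level (95% exact interval 1.59 to 11.6), 7.91 times the Hmgn2-/- level (2.43 to 40.7) and 3.41 times that of the double knockout (1.51 to 8.68). Isg15 did not pass the filter, and with no filter beyond 1 count it was not a DEG either (adjusted p = 0.0546, 0.0323 and 0.0950 by edgeR's quasi-likelihood test in Hmgn1-/-, Hmgn2-/- and Hmgn1-/-Hmgn2-/- mESCs).

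Oasl2 belongs to the family of 2'-5' oligoadenylate synthetases, enzymes that respond to double-stranded RNA. The gene (chr5:114896936-114912234, plus strand) had 62, 12 and 43 counts in the WT libraries, or 1.94, 0.672 and 1.49 CPM. It was at 0.538, 0.526 and 0.597 CPM in the Hmgn1-/- libraries, at 0.654, 0.341 and 0.476 CPM in the Hmgn2-/- libraries and at 0.513, 0.316 and 0.458 CPM in the double knockout. WT replicate 2 was the lowest WT library and lay just above the highest knockout library. The means were 1.37 ± 0.641 CPM in WT mESCs, 0.554 ± 0.0384 CPM in Hmgn1-/- mESCs, 0.490 ± 0.157 CPM in Hmgn2-/- mESCs and 0.429 ± 0.101 CPM in the double knockout (SD, n = 3). In the double knockout Oasl2 fell with a log2 FC of -1.70 (standard error 0.39, adjusted p = 0.0048 by edgeR's quasi-likelihood test, Benjamini-Hochberg adjusted), and DESeq2 gave -1.69 (adjusted p = 0.0050). This call was lost when WT replicate 1 (-1.38), WT replicate 3 (-1.67) or double knockout replicate 1 (-1.85), 2 (-1.54) or 3 (-1.73) was left out. In Hmgn1-/- and Hmgn2-/- mESCs the log2 FC was -1.36 and -1.52 (adjusted p = 0.0144 and 0.0252, the same edgeR test), and Oasl2 was not a DEG there. Without WT replicate 2 it was a DEG in Hmgn1-/- mESCs (-1.63). Reads of Oasl2 and its close relative Oasl1 may not be fully separated, which was not tested. Oasl1 was at 0.939 ± 0.168 CPM in WT mESCs, 1.64 ± 0.190 CPM in Hmgn1-/- mESCs, 1.77 ± 0.242 CPM in Hmgn2-/- mESCs and 1.32 ± 0.267 CPM in the double knockout, and the sum of both genes was 2.30 ± 0.747, 2.19 ± 0.222, 2.26 ± 0.0914 and 1.75 ± 0.166 CPM in the same order (SD, n = 3), with every range of the knockouts inside that of WT mESCs.

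Bst2 encodes tetherin, a membrane protein that holds budding virus particles at the cell surface. The gene (chr8:71534255-71537456, minus strand), whose promoter window held both motifs, had 2871, 1480 and 2468 counts in the WT libraries, 2251, 1732 and 1966 in Hmgn1-/- mESCs, 1844, 2204 and 1649 in Hmgn2-/- mESCs and 2218, 1751 and 2157 in the double knockout. Its means were 86.0 ± 3.45 CPM in WT mESCs, 86.5 ± 3.80 CPM in Hmgn1-/- mESCs, 84.2 ± 13.5 CPM in Hmgn2-/- mESCs and 77.5 ± 5.77 CPM in the double knockout (SD, n = 3). The libraries of WT mESCs overlapped with those of both single knockouts and lay above those of the double knockout. The log2 FC of Bst2 was 0.00, -0.03 and -0.16 in Hmgn1-/-, Hmgn2-/- and Hmgn1-/-Hmgn2-/- mESCs (adjusted p = 0.978, 0.891 and 0.101, edgeR's quasi-likelihood test, Benjamini-Hochberg adjusted), with standard errors of 0.06, 0.11 and 0.07. The sign of the first 2 values changed between alternatives.

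Ifit1 and Ifit3 encode proteins that bind foreign RNA and limit its translation, and both are among the genes most strongly induced by interferon in differentiated cells. Ifit1 (chr19:34640871-34650009, plus strand) had 8, 1 and 3 counts in the WT libraries, 6, 2 and 3 in Hmgn1-/- mESCs, 0, 3 and 5 in Hmgn2-/- mESCs and 2, 2 and 2 in the double knockout, which was at the floor. The WT level of Ifit1 was 0.952 times the Hmgn1-/- level (95% exact interval 0.384 to 2.38), 1.32 times the Hmgn2-/- level (0.495 to 3.72) and 2.02 times that of the double knockout (0.702 to 6.56), so a difference was not detectable at this depth. Ifit3 (chr19:34583531-34588731, plus strand) had 0 to 2 counts in every library of every genotype. It was at the floor throughout, and no fold is given.

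The knockouts were also compared with each other, which uses no WT library. Of the 9 members, 3 (Ddx58, Oasl2 and Bst2) passed the filter in these comparisons. By edgeR's quasi-likelihood test 0 members were DEGs between Hmgn2-/- and Hmgn1-/- mESCs, where 0.176% of 13648 genes were. Between Hmgn1-/-Hmgn2-/- and Hmgn1-/- mESCs 0 members were DEGs, against 0.511% of 13710 genes, and between Hmgn1-/-Hmgn2-/- and Hmgn2-/- mESCs 0 members, against 0.0434% of 13816 genes. At an unadjusted p under 0.05 there were 0, 1 (Bst2) and 0 members, and by DESeq2 0 members were DEGs in each, with 0, 2 and 0 at an unadjusted p under 0.05. Of all genes 3.202%, 9.53% and 4.44% had such a p by edgeR and 1.86%, 6.11% and 2.76% by DESeq2. Zbp1 did not pass the filter here. In fits with no filter beyond 1 count, chosen after seeing the data, Zbp1 had a log2 FC of -1.53 between Hmgn2-/- and Hmgn1-/- mESCs (adjusted p = 1.00, edgeR's quasi-likelihood test). It had -3.34 between the double knockout and Hmgn1-/- mESCs (adjusted p = 0.0197) and -1.81 between the double knockout and Hmgn2-/- mESCs (adjusted p = 0.995), so the order of the knockouts was not resolved at these limits. Whether the double knockout departed from the sum of the single knockouts on the log2 scale was tested in a single edgeR fit of all 12 libraries. Of the 4 members tested there, 0 departed from additivity, against 3.48% of 14323 genes, and 1 had an unadjusted p under 0.05, against 25.9% of these genes. The departure was 0.34 for Zbp1 (standard error 1.71, adjusted p = 0.935) and 0.78 for Ddx58 (adjusted p = 0.0556). By the same edgeR test it was 1.19 for Oasl2 (standard error 0.57, adjusted p = 0.203) and -0.12 for Bst2 (adjusted p = 0.650).

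The other genes of the pathway were taken from 3 lists, which were also chosen with earlier results of these data known. In the list of other sensors, adaptors, kinases and nucleic acid enzymes, all 27 genes were in the table and 23, 22 and 23 were tested in Hmgn1-/-, Hmgn2-/- and Hmgn1-/-Hmgn2-/- mESCs. The median log2 FC of these genes was 0.08, 0.10 and 0.10, against 0.00, 0.01 and 0.00 for all genes tested. Every knockout library was above every WT library for 12, 8 and 8 of them (52.2%, 36.4% and 34.8%), against 21.9%, 17.4% and 21.8% of all genes, and below for 6, 5 and 3 (26.1%, 22.7% and 13.04%), against 20.5%, 18.7% and 20.8%. By edgeR's quasi-likelihood test 1, 0 and 0 of them were DEGs, with 16, 10 and 10 at an unadjusted p under 0.05, where 38.7%, 31.0% and 38.9% of all genes tested had such a p, and by DESeq2 0 were DEGs in each. Dhx58, which encodes LGP2, a relative of RIG-I and MDA5 that tunes their activity, rose in Hmgn1-/- mESCs (log2 FC 1.04, adjusted p = 0.0084 by edgeR). Its log2 FC was 1.06 in Hmgn2-/- mESCs and 0.51 in the double knockout (adjusted p = 0.0176 and 0.199 by edgeR), where it was not a DEG. The call of Dhx58 was lost without WT replicate 2 (1.00), WT replicate 3 (0.90) and each of Hmgn1-/- replicates 1 (0.96), 2 (1.08) and 3 (1.06). Trim25 and Rnaseh2a, the most abundant genes of this list outside the DEGs, had log2 FC values of 0.01, -0.15 and -0.02 and of 0.13, 0.24 and 0.11. Without WT replicate 1 Ikbke was a DEG and lower in each knockout (-1.70, -1.51 and -1.47).

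In the list of interferons, their receptor, kinases and transcription factors, all 27 genes were in the table and 11 were tested in each comparison. Of the 14 type I interferon genes, 10 had no count in any library, and the other 4 had 9 counts in total with at most 2 in a library. The median log2 FC of the genes tested was 0.06, 0.03 and -0.03 in Hmgn1-/-, Hmgn2-/- and Hmgn1-/-Hmgn2-/- mESCs. Of these genes 4, 3 and 4 (36.4%, 27.3% and 36.4%) had every knockout library above every WT library. The share over all genes tested was 21.9%, 17.4% and 21.8%. Every knockout library was below for 2, 3 and 2 (18.2%, 27.3% and 18.2%), against 20.5%, 18.7% and 20.8% of all genes. Irf1, an activator of interferon-stimulated genes that binds the IRF element, was at 34.3 ± 3.85 CPM in WT mESCs, 16.0 ± 0.491 CPM in Hmgn1-/- mESCs, 15.4 ± 2.59 CPM in Hmgn2-/- mESCs and 12.9 ± 0.954 CPM in the double knockout (SD, n = 3). It fell in each knockout, with log2 FC values of -1.10, -1.16 and -1.42 (adjusted p = 2.3e-06, 1.8e-04 and 3.5e-07, edgeR's quasi-likelihood test), and was a DEG with any 1 library left out. Irf5 and Irf8, factors best known from immune cells, were each DEGs and higher in some of the comparisons. In Hmgn2-/- mESCs Irf5 was not a DEG by edgeR or by DESeq2, which gave a log2 FC of 0.58. Irf5 rose in Hmgn1-/- mESCs (log2 FC 1.00), a call lost without WT replicate 2 (0.89), WT replicate 3 (1.03) or Hmgn1-/- replicate 2 (0.89) or 3 (1.00). In the double knockout its log2 FC was 1.06, and the call was lost without WT replicate 2 (0.95) or double knockout replicate 1 (0.97). Irf8 rose in Hmgn2-/- mESCs (1.16), a call lost without WT replicate 2 (1.19), WT replicate 3 (1.16) or Hmgn2-/- replicate 2 (1.17). In the double knockout its log2 FC was 1.07, and the call was lost without double knockout replicate 1 (1.00) or 2 (1.01). In Hmgn1-/- mESCs Irf8 was a DEG by DESeq2 (1.00) and not by edgeR (1.00, adjusted p = 0.0068). The kinases Jak1 and Tyk2, the most abundant genes of the list outside the DEGs, had log2 FC values between -0.03 and 0.15.

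Of 46 other interferon-stimulated genes, 43 were in the table and 27, 28 and 28 were tested. In Hmgn1-/-, Hmgn2-/- and Hmgn1-/-Hmgn2-/- mESCs 10, 10 and 7 of them were DEGs and lower, against 5.08%, 4.38% and 5% of all genes tested. Herc6, Sp110 and Cxcl10 passed the filter through the WT libraries only, so as DEGs they could only be lower. Among the 24 genes of the list that passed in the libraries of each group alone, a limit chosen after seeing the data, 7, 7 and 5 were DEGs and lower, against 3.55%, 3.32% and 3.82% of all such genes. By edgeR's quasi-likelihood test and by DESeq2, 0 were higher in any knockout, and at an unadjusted p under 0.05 there were 18, 19 and 22 genes by edgeR and 22, 21 and 23 by DESeq2, in either direction. Over all genes the share at this p was 38.7%, 31.0% and 38.9% by edgeR and 27.5%, 22.9% and 27.8% by DESeq2. Every knockout library was below every WT library for 14, 15 and 18 of the genes tested (51.9%, 53.6% and 64.3%), against 20.5%, 18.7% and 20.8% of all genes tested. Every one was above for 5, 6 and 3 (18.5%, 21.4% and 10.7%), against 21.9%, 17.4% and 21.8%. These shares and the counts by unadjusted p still include Herc6, Sp110 and Cxcl10, so the filter favours lower values in them. The shares over all genes likewise include 693, 639 and 575 genes that passed through the WT libraries only. Parp14, Dtx3l and Ifit2, named after their values were seen, lay above in each knockout, with log2 FC values of 0.76, 0.50 and 0.68, of 0.64, 0.53 and 0.54, and of 0.74, 0.89 and 0.65, under the limit on fold change. The median log2 FC of all genes tested from this list was -0.39, -0.60 and -0.69, and -0.31, -0.34 and -0.49 for the genes that passed in each group alone. Oas1a, Oas1g, Xaf1, Parp10, Herc6, Sp110 and Slfn9 were lower in all 3 comparisons, and apart from Oas1g in Hmgn2-/- mESCs each stayed a DEG with any 1 library left out. Oas1a, an oligoadenylate synthetase like Oasl2, was at 8.46, 9.46 and 8.69 CPM in the WT libraries and at 1.08 to 2.67 CPM in the knockout libraries. Its log2 FC was -2.44, -2.37 and -2.20 in Hmgn1-/-, Hmgn2-/- and Hmgn1-/-Hmgn2-/- mESCs. Slfn9, a gene of the Schlafen family, had -2.32, -2.82 and -3.27, and Sp110, which encodes a nuclear body protein, had -4.32, -3.11 and -2.33, with Hmgn1-/- mESCs at the floor. Xaf1 had -1.89, -1.99 and -2.16, and Parp10 had -1.96, -2.08 and -2.09. Herc6, a ligase that attaches Isg15 in the mouse, had 52, 11 and 35 counts in the WT libraries, 1, 4 and 0 in Hmgn1-/- mESCs, none in Hmgn2-/- mESCs and 1, 1 and 2 in the double knockout. Its WT level was 17.1 times the Hmgn1-/- level (95% exact interval 7.08 to 53.8) and 24.8 times that of the double knockout (9.36 to 92.6), and in Hmgn2-/- mESCs, where no count was seen, Herc6 was at least 22.9-fold lower by the lower limit of the same interval. Both groups with Hmgn2 edited were at the floor. The fitted log2 FC of Herc6 in Hmgn1-/- mESCs was -3.95, and -5.55 without Hmgn1-/- replicate 2.

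Several calls of this list were near the limits and changed with a library left out. Oas1g had log2 FC values of -1.76, -1.93 and -2.03, and its call in Hmgn2-/- mESCs was lost without WT replicate 2 (-1.82) or WT replicate 3 (-1.85). Oas2 was a DEG in Hmgn1-/- mESCs (-1.01), a call lost without WT replicate 2 (-0.97), WT replicate 3 (-0.96) or Hmgn1-/- replicate 2 (-0.91) or 3 (-0.99). Ifi35 was lower in Hmgn1-/- (-1.31) and Hmgn2-/- mESCs (-1.24), the latter lost without WT replicate 1 (-1.01), WT replicate 3 (-1.28) or Hmgn2-/- replicate 2 (-1.23). Oas1c was lower in Hmgn2-/- mESCs (-1.17), a call kept only without Hmgn2-/- replicate 3 (-1.35) and otherwise lost at values of -1.05 to -1.31. Cxcl10, a chemokine, was lower in Hmgn1-/- (-2.28) and Hmgn2-/- mESCs (-2.99). The first of these calls was lost without WT replicate 1 or 3, when Cxcl10 did not pass the filter, and without Hmgn1-/- replicate 1 (-1.92) or 2 (-2.27). The other was lost without WT replicate 1 (-3.08), WT replicate 3 (-2.65) or Hmgn2-/- replicate 2 (-2.59), and DESeq2 did not call Cxcl10 in Hmgn1-/- mESCs. Without Hmgn2-/- replicate 1 the value of Cxcl10 in Hmgn2-/- mESCs was -3.82. Other calls were gained with a library left out. In the double knockout these were Ifi35 without WT replicate 2 (-1.16) or double knockout replicate 3 (-1.32), Oas2 without WT replicate 1 (-1.07) or double knockout replicate 2 (-1.07), and Oas1c without WT replicate 3 (-1.03). In Hmgn1-/- mESCs Oas1c was gained without WT replicate 3 (-1.12), Phf11d without Hmgn1-/- replicate 3 (-1.05) and, as a higher gene, Ifit2 without WT replicate 1 (1.02). In Hmgn2-/- mESCs Phf11d was gained without WT replicate 1 (-1.02) or Hmgn2-/- replicate 3 (-1.01) and Trim21 without Hmgn2-/- replicate 3 (-1.43). The number of genes of this list that were lower in Hmgn2-/- mESCs was 6 without WT replicate 3. Ifitm2 and Ifitm3, the most abundant genes of the list outside the DEGs, had log2 FC values of -0.09, -0.14 and -0.30 and of 0.02, -0.04 and -0.37. Near-identical copies such as those of the Oas1 family and Slfn9 with Slfn8 may share reads, which was not tested.

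**Figure D3:**
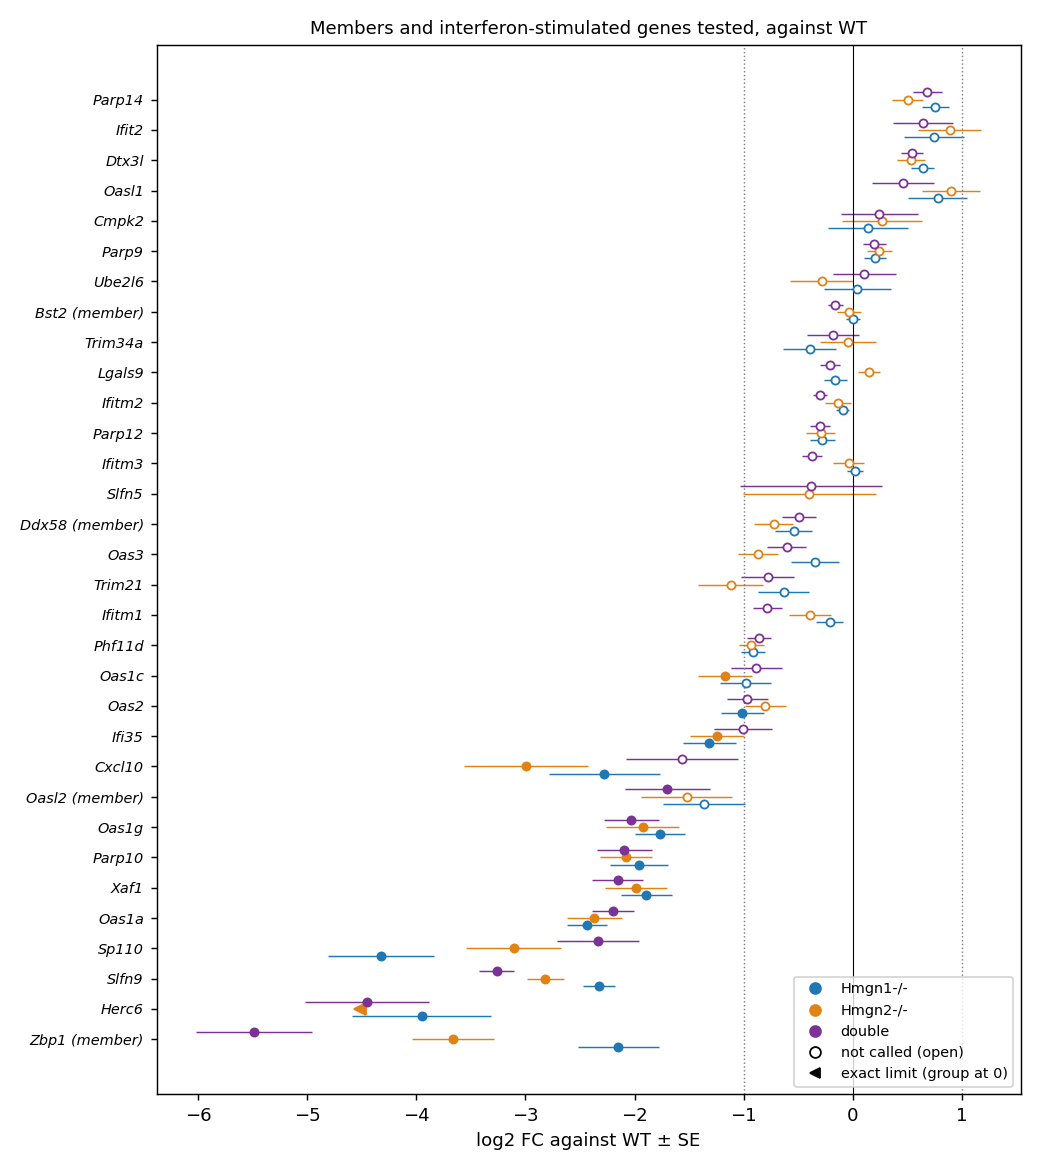
Log2 FC against WT mESCs with standard errors for the members and the listed interferon-stimulated genes tested, in each knockout (double stands for Hmgn1-/-Hmgn2-/-), with filled circles for DEGs, open circles for other genes tested and a triangle for the exact limit in a group without counts. Zbp1 lies at -2.15, -3.67 and -5.49, and Bst2 lies at 0 within its error in the single knockouts.

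Markers of other cell types also differed between genotypes, some lower and some higher in the knockouts. The summed level of 8 fibroblast markers was 21.3, 17.6 and 22.2 CPM in the WT libraries, 6.99, 5.83 and 6.48 CPM in Hmgn1-/- mESCs, 6.39, 7.08 and 6.90 CPM in Hmgn2-/- mESCs and 5.99, 8.99 and 7.71 CPM in the double knockout. Of these markers 4 were tested, and Col1a1, Col1a2 and Thy1 were lower DEGs in each knockout. Thy1 was the most abundant, Lum was at 0 in every library and Dcn had at most 3 counts in any. The summed level of the 9 of 10 macrophage markers in the table was 22.4, 31.5 and 33.9 CPM in the WT libraries, 8.84, 10.1 and 11.2 CPM in Hmgn1-/- mESCs, 7.81, 8.55 and 11.95 CPM in Hmgn2-/- mESCs and 6.73, 9.08 and 10.9 CPM in the double knockout. Cd68 made up most of these sums, at 19.6, 26.9 and 30.4 CPM in the WT libraries, and was lower in each knockout. Itgam was lower in Hmgn1-/- mESCs and in the double knockout, and C1qb and Tyrobp were at 0 in every library. The means of Fcer1g were 0.436, 0.322, 0.2005 and 0.431 CPM in WT, Hmgn1-/-, Hmgn2-/- and Hmgn1-/-Hmgn2-/- mESCs. In the same order Ptprc was at 0.0912, 0.0447, 0.139 and 0.0234 CPM, from few counts, and Lyz2 had 0, 4, 0 and 1 counts. Primitive endoderm markers were higher, 6, 7 and 9 of 9 as DEGs, with sums of 142 to 185 CPM in WT mESCs, 364 to 436 CPM in Hmgn1-/- mESCs, 332 to 504 CPM in Hmgn2-/- mESCs and 853 to 932 CPM in the double knockout. Of 6 trophoblast markers tested, 3 (Krt8, Krt18 and Ascl2) were lower in each knockout, with sums of 331 to 510 CPM in WT mESCs and 81.8 to 155 CPM in the knockouts. Krt8 and Krt18 made up most of these WT sums (means of 213 and 136 CPM), while Tfap2c, with log2 FC values of 0.02, 0.12 and -0.23, and Cdx2, with -0.52, 0.03 and 0.01, were not DEGs. Whether such cells were present was not tested, and neither was any part of them in the lower levels of Zbp1, Oasl2 and listed interferon-stimulated genes.

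**Figure D4:**
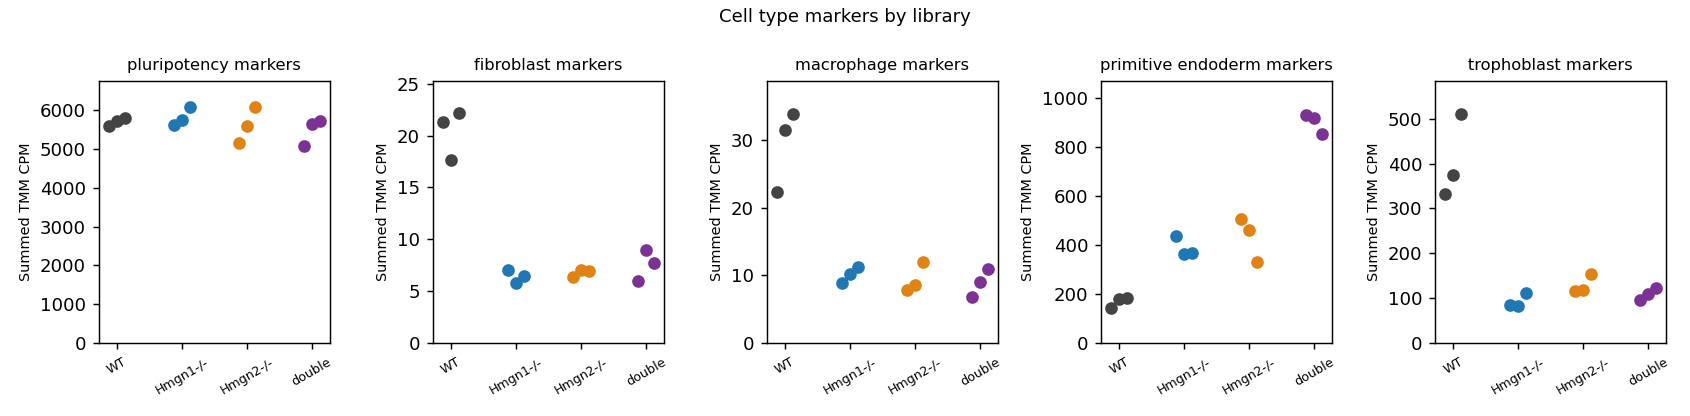
Summed level of each list of cell type markers in every library in TMM-scaled CPM, with 1 panel per list and double standing for Hmgn1-/-Hmgn2-/-. Fibroblast, macrophage and trophoblast sums are highest in the WT libraries, primitive endoderm sums are highest in the double knockout, and pluripotency sums overlap between genotypes.

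The genes whose levels most resembled the members over the 12 libraries were sought among 11553 genes whose mean over all libraries was 50 counts or more. Likeness was Pearson's r with the mean z-scored log2 CPM of the 4 members that passed the filter, and it is given as a description. The 5 genes with the highest r were Cnn2 (0.980), Ooep (0.972), Plekha4 (0.966), Spp1 (0.962) and Cyct (0.960). Cnn2 was at 111 ± 10.6 CPM in WT mESCs, 76.2 ± 13.02 CPM in Hmgn1-/- mESCs, 70.1 ± 13.5 CPM in Hmgn2-/- mESCs and 60.1 ± 6.81 CPM in the double knockout (SD, n = 3). Like the member profile, all 5 had their highest mean in WT mESCs, and the log2 FC of each was under 1 in size in every knockout. The libraries share the same groups and WT controls, so this likeness is not independent of the comparisons above.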

How the data were processed

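RNA-Seq was analysed in 12 libraries of v6.5 mESCs, 3 per genotype, grouped by the sample labels. The authors deposited counts, whole numbers of reads per gene without normalization, from poly-A-selected libraries that they sequenced as paired ends and aligned to mm10 with STAR. The counting program, its annotation and its use of strand are not given in the sources used here. Genes were matched by symbol, and Ddx58, Cgas and Sting1 were also looked up as Rigi, Mb21d1 and Tmem173. The members and lists were chosen with earlier results of these data known.

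Tests were run in R 4.3.3 with edgeR 4.0.16 (limma 3.58.1) on the 6 libraries of each comparison: TMM normalization, filterByExpr, the quasi-likelihood test, and Benjamini-Hochberg adjustment over all genes tested. The departure from additivity (double knockout minus both single knockouts plus WT) was tested in 1 fit of 12 libraries. DEGs had an adjusted p under 0.01 and a log2 FC of at least 1 in size. Intervals on ratios of summed counts are exact 95% conditional binomial intervals, two-sided, on TMM-scaled library sizes. The alternatives were DESeq2 1.42.0, RLE scaling, no filter beyond 1 count, a filter of 10 counts in each library, a single fit of all libraries, a replicate block, an adjusted p under 0.05, no fold limit and each library left out in turn. The steps were tested on simulated data with known changes.

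The genes named were the members, Hmgn1, Hmgn2, every gene of the 3 pathway lists that was a DEG against WT mESCs in at least 1 comparison, the 2 genes of each list with the highest mean CPM among the others, and the 5 genes most like the members, sought among genes whose mean reached 50 counts, with a prior count of 2 for log2 CPM. Marker genes and examples outside this rule were chosen from fixed marker lists or after their values were seen. The calls of single pathway genes with a library left out, the DESeq2 counts of the pathway lists and the filter applied to each group alone were also added after seeing the data. Ifit1bl1, Ifit3b, Ifi27 and Adgre1 were not analysed here. The replicate numbers were checked for pairing by the correlation, over 14323 genes, of the deviations of same-numbered libraries from their group means. For the double knockout against WT it was 0.17, 0.12 and 0.10, above 0.1 for each number. A fit with the replicate number as a block then gave 2 members and 942 genes as DEGs. Over all 18 same-numbered pairs of libraries the correlation was 0.0169 to 0.301, highest for replicate 1 of the double knockout and Hmgn2-/- mESCs. No block was fitted for the comparisons between knockouts. Coordinates are from GENCODE on GRCm38, and exon lengths are unions over transcripts. Figures were drawn with matplotlib 3.10.9 in Python 3.11.15.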

Additional observations from a re-analysis of the deposited data

Results flagged for a closer look

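The effect of losing both genes was compared with the sum of the effects of the single knockouts on the log2 scale, in an edgeR fit of all 12 libraries, where 499 of 14323 genes (3.48%) differed from that sum. Of the pathway genes tested, these included 3 of 28 other interferon-stimulated genes, 1 of 23 in the list of sensors, 0 of 11 in the list of interferons and 0 of 4 members, and Hmgn1 differed as well. The difference was 5.11 for Sp110, 1.88 for Slfn9 and 2.62 for Oas1a, which were less low in the double knockout than the sum. A gene lowered by a like amount in each knockout gives a positive difference by definition. For such a gene, as for Oas1a, the difference largely restates the fall against WT mESCs. It was -1.57 for Dhx58, which was less high than the sum, and -2.63 for the edited gene Hmgn1, which was lower than the sum. Sp110 had 5 counts in all of Hmgn1-/- mESCs, 12 in Hmgn2-/- mESCs and 24 in the double knockout, against 118 in WT mESCs, so its value rests on few counts. Slfn9 may share reads with Slfn8, which was not tested. The double knockout was made from the Hmgn2-/- line, and genotype and clone cannot be told apart for these differences.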

How the results depend on the processing

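Of 132 alternative values for the counts of DEGs, 113 stayed within 1.5 times the reported count and 19 did not. Of 139 alternative values for the members' log2 FC, 123 kept their direction and side of the limits. Members called in Hmgn1-/- mESCs numbered 2 with no filter beyond 1 count, 2 with the replicate block and 2 at an adjusted p under 0.05, in place of 1, and 1 to 2 with a library left out. In Hmgn2-/- mESCs there were 2 in the single fit of 12 libraries and 2 at an adjusted p under 0.05. In the double knockout there were 1 to 2 with a library left out. With at least 10 counts in every library 0 members were called in Hmgn1-/-, 0 in Hmgn2-/- and 0 in the double knockout, since Zbp1 and, in the last 2, Oasl2 are then not tested. With no fold limit all genes called were 2412, 1400 and 2544, and the listed interferon-stimulated genes lower in the double knockout were 12, since more genes can pass. The latter numbered 6 to 12 in Hmgn2-/- mESCs with a library left out. The log2 FC of Bst2 in Hmgn1-/- mESCs was -0.0002143 with RLE, -0.00625 with at least 10 counts, -0.0006944 in the single fit and -0.0334 to 0.0296 with a library left out. In Hmgn2-/- mESCs it was -0.16 to 0.0748 with a library left out. The cause of the other changes was not tested. The replicate numbers of the single knockouts and WT do not pair by the check used, and a block on them gave 902 and 676 DEGs. RLE moved the median log2 FC of all genes by under 0.1. Depth limits Ifit3, which was at the floor in every group, and Irf7, Ifit1, Ifih1 and Isg15, which did not pass the filter. No alternative changes the limit set by 1 clone per knockout.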
